A study of Mus musculus with 11 samples.

Results

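The 8 families of axon and vessel guidance molecules were followed in mouse cavernous endothelial cells in culture, named so by the labels after the lining of the blood spaces of the penis. The members were the Eph receptors, ephrins, semaphorins of classes 3 to 7, plexins, Slits, Robos, netrins and Unc5 receptors, taken by gene symbol and kept if the normalized count was at least 1 in at least 3 of the 11 libraries. Of 66 symbols, 64 passed, out of 18248 genes that passed the same filter. These were 12 of 14 Eph receptors, 8 ephrins, 20 semaphorins, 9 plexins, 3 Slits, 4 Robos, 4 netrins and 4 Unc5 receptors. Epha8 and Epha10 did not pass: Epha8 stood at 0.854 normalized counts at most and Epha10 at 2.00 at most. The filter can favour genes that are high in only a few libraries. Ntn5 passed with exactly 3 libraries, 2 of them in file set 3, and Robo4 with 6.

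All libraries were taken after 5 days of culture. Normal glucose had 3 libraries and high glucose 4. Another 4 came from high glucose to which Hsp70, a heat shock chaperone, was added. How high the glucose was, and in which form and amount Hsp70 was given, the labels do not say, and they name no genotype or treatment beyond these. The numbers in the names of the deposited files put the libraries into 4 sets. Every group had 1 library in each of sets 3, 4 and 5, whereas set 2 lacked normal glucose. What a set stands for is not given in the sources used here. Nothing says that the replicates were separate animals or cultures, so p-values measure only the spread between these libraries.

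These families carry short-range and long-range signals that steer growing axons and, in vessels, endothelial sprouts and mural cells. Ephrins bind Eph receptors on touching cells and signal in both directions, and ephrin-B2 and EphB4 are known as partners at the boundary of arteries and veins. Semaphorins act through plexins, the secreted class 3 together with neuropilins. Slits act through Robo receptors, and netrins act through Dcc, neogenin and the Unc5 receptors. Robo4, Plxnd1 and Unc5b are known from endothelial cells, whereas Slit2, Slit3, Sema3a and Sema3c are made by many stromal cells as well.

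Normalized counts summed to 24.79 to 27.81 M a library, of which the ribosomal RNA gene Rn45s made up 0.638% to 7.0%. Libraries of set 3 stood apart from the rest, so each result is given with its set. Summed over 12 markers, endothelial RNA was 1955 to 2133 normalized counts in set 3 and 344 to 548 in the other 8 libraries. Of these 12 markers 11 were called higher in set 3 by limma. Cldn5, the claudin of endothelial tight junctions, was under 1 count in all 8 libraries outside set 3, and the endothelial receptor kinase Tie1 in 5 of them. Others were well above that level there, among them Cdh5 at log2 values of 5.68 to 8.26 and Egfl7 at 6.69 to 7.73. Tek, which was not called, stood at 5.22 to 5.89 in set 3 and at 5.09 to 6.44 in the other 8 libraries. In the same 8 libraries the 9 fibroblast markers summed to 162750 to 265629, against 334365 to 410973 in set 3. The 10 macrophage and leukocyte markers summed to 532.6 to 870.6 outside set 3 and to 4691 to 5616 in it. In bulk RNA, fewer cells of a type and less RNA per cell cannot be told apart.

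The most abundant members were secreted ligands of the Slit and semaphorin families and 1 plexin. Per kilobase of merged exons, the median over the 11 libraries was 2784 normalized counts for Slit3 (2118 to 4622), 2509 for Sema3c (1918 to 3818), 2289 for Slit2 (1055 to 3508), 2288 for Plxnb2 (1733 to 2886) and 1055 for Sema3a (625 to 2008). The ranges of the first 4 overlapped, so their order was not resolved. These 5 were the members above the 90th percentile of all genes tested (923 per kilobase), and 26 of the 64 lay above the median of all genes (85.3 per kilobase). The remaining Slit, Slit1, was at 3.45 per kilobase.

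In the receptor families of these ligands, Robo1 was the highest Robo, at a median of 819 per kilobase, then Robo2 at 109 and Robo3 at 6.14. Plxna1, a co-receptor of class 3 semaphorins with neuropilins, followed Plxnb2 at 773, and Plxnd1, the Sema3e receptor of endothelial cells, was at 216. The Sema3e gene itself was at 19.3. Secreted class 3 semaphorins thus spanned the range from 2509 for Sema3c down to 0.665 for Sema3g. Sema6d, a transmembrane semaphorin, came after Sema3c and Sema3a in its family, at 415.

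The highest Eph receptors were Ephb4 at 310 per kilobase, Epha7 at 268 and Epha3 at 122. The highest ephrins were Efna5, a lipid-anchored A-type ligand, at 515, Efnb2 at 280 and Efnb1 at 149. Ephb4 and Efnb2 were both present in all 11 libraries, and their ranges overlapped, at 244 to 378 for Ephb4 and 185 to 351 for Efnb2. Ntn1 led the netrins at 527 (358 to 594), then Ntn4 at 34.2 and Ntn3 at 13.3. Unc5b led its family at 152, then Unc5c at 100.3 and Unc5d at 25.4. The lowest members were Ntn5 at 0.0068 per kilobase, Robo4 at 0.226, Epha6 at 0.432, Ephb1 at 0.573 and Sema3g at 0.665.

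**Figure D1:**
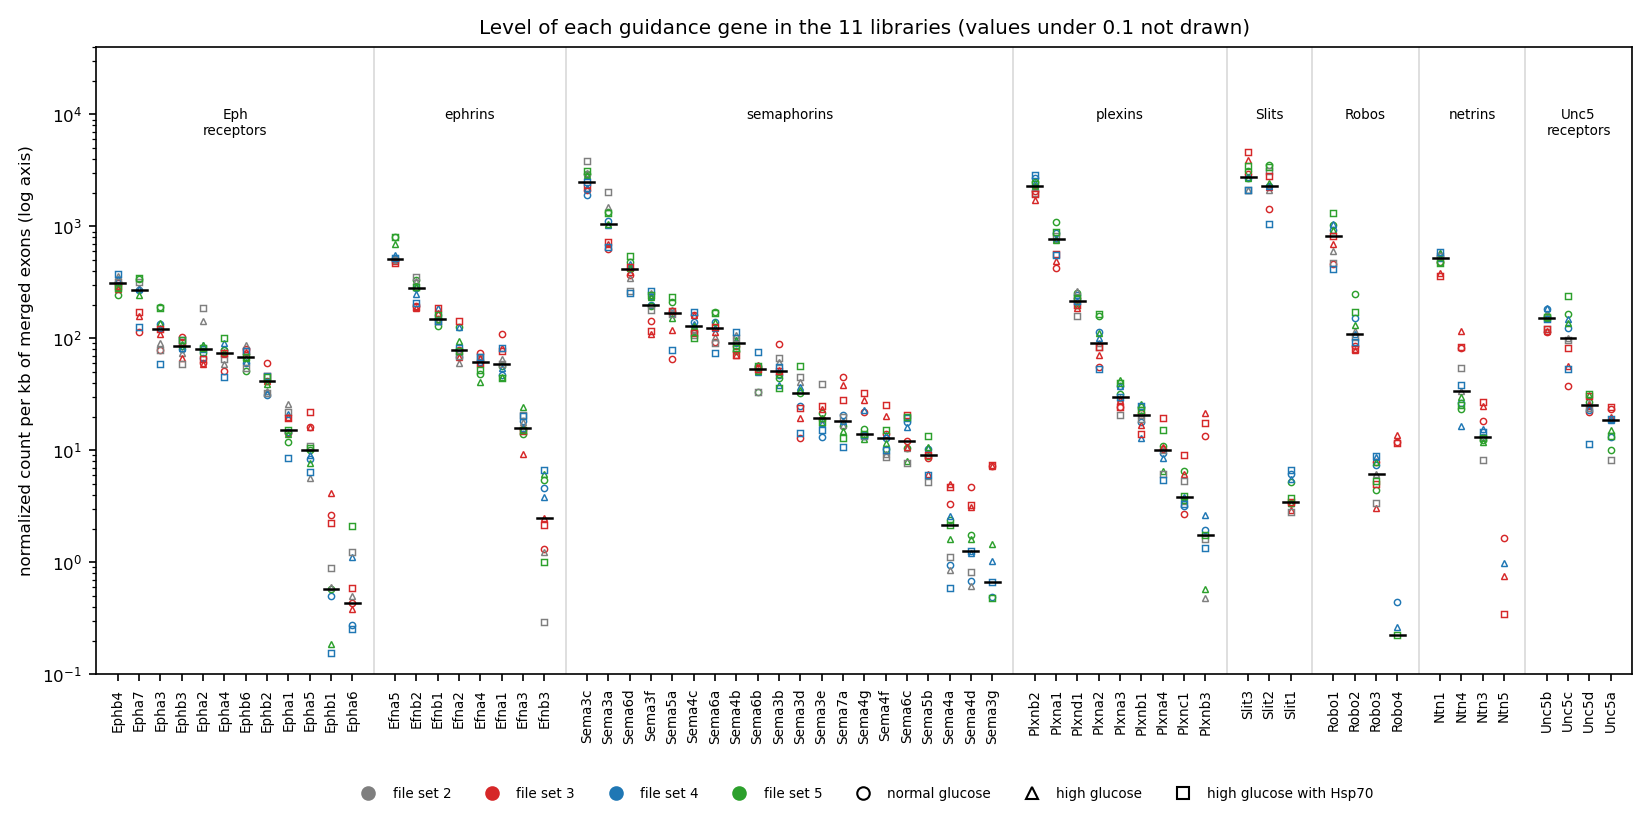
Normalized count per kilobase of merged exons (vertical log axis) of the 64 guidance genes, grouped by family and ordered by their median. Each point is a library, its colour the file set and its shape the group, and each bar is the median of the 11 libraries, with values under 0.1 not drawn. Slit3, Sema3c, Slit2 and Plxnb2 lie highest, and for Robo4, Plxnb3, Sema3g and Ephb1 the points of file set 3 lie above all others.

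Most of the spread of a guidance gene followed the file set rather than the group. Taken alone, the set accounted for a median of 62.7% of the variance of a member and the group for 6.08%. Over all genes tested the medians were 49.8% and 7.33%. The set took the larger share in 62 of 64 members (96.9%) and in 88.7% of all genes. The exceptions were Plxnd1, with 32.7% by group and 12.4% by set, and Epha6, with 30.2% and 11%. The set has 4 levels and the group 3, so the shares rest on unequal numbers of means.

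Against sets 2, 4 and 5, set 3 differed in 19 of the 64 members by limma, 12 higher and 7 lower, where 12.7% of all genes were called (8.21% higher and 4.48% lower). At an unadjusted p under 0.05 it was 33 members, against 25.3% of all genes. In 17 members, 11 higher and 6 lower, the 3 libraries of set 3 did not overlap the other 8, against 12% of all genes (8.14% higher and 3.85% lower). The median difference was 0.05 for the members and -0.00 for all genes on the log2 scale. Libraries of 1 set were correlated, and the p-values treat them as independent. With 1 value a file set (n = 4 sets), limma called 3 members, Robo4, Plxnb3 and Ntn4, against 2.96% of all genes. Here and below, that value was the mean of the high glucose and Hsp70 libraries of a set, without normal glucose. Single libraries also moved the count. It was 6 without high glucose replicate 2 (5.29% of all genes), 10 without Hsp70 replicate 2 (6.65%) and 30 without Hsp70 replicate 3 (20.8%). With each library centred on its median, 23 members were called, 10 higher and 13 lower, against 14.1% of all genes. Without file set 2 there were 13 (9.71% of all genes), and 12 of the 19 kept their call; Epha2, Plxna1, Sema3a, Sema4a, Sema4f, Sema4g and Slit3 lost it.

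Markers of several cell types differed between the same libraries. Beside the endothelial list above, called markers were higher in set 3 for 9 of 10 macrophage and leukocyte genes, 5 of 9 of fibroblasts, 5 of 7 of Schwann cells, 1 of 4 of neurons, 5 of 10 of smooth muscle and pericytes (with 1 lower) and 0 of 4 of epithelium. The Schwann cell markers summed to 1583 to 5134 normalized counts in set 3 and 591 to 2263 elsewhere, those of smooth muscle and pericytes to 11224 to 13204 and 7807 to 9535. The part of these cell types in the differences of guidance genes between sets was not tested.

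**Figure D2:**
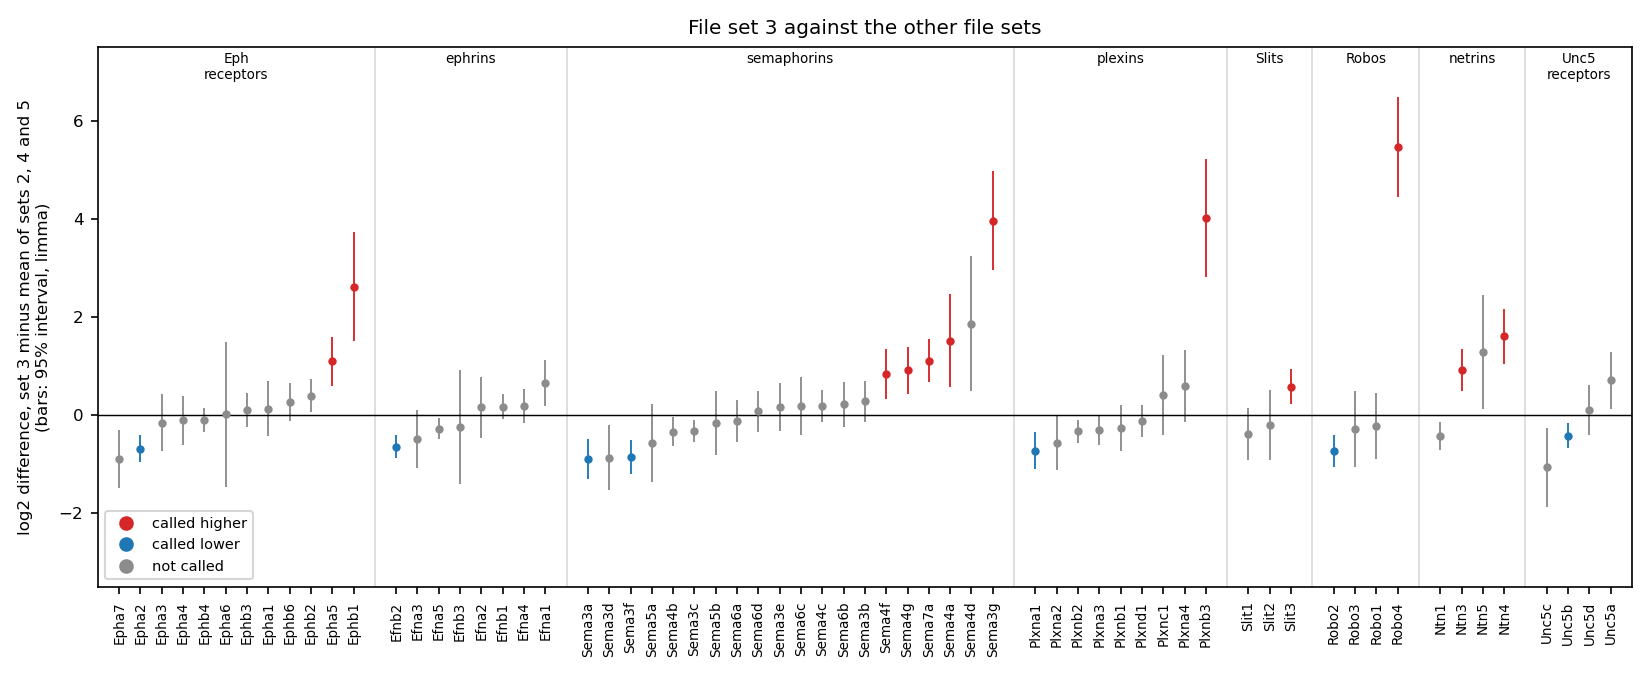
Log2 difference of file set 3 from the mean of sets 2, 4 and 5 (vertical axis) for each of the 64 guidance genes by family, with the 95% interval from limma. Colour marks the 12 genes called higher, the 7 called lower and those not called. Robo4, Plxnb3 and Sema3g lie farthest above 0, at 5.46, 4.02 and 3.96.

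The Robo family split. Robo4, the Robo of endothelial cells (chromosome 9, 37401897 to 37415115 in mm10, plus strand), stood at 59.1, 60.5 and 70.1 normalized counts in set 3 and at 0 to 2.24 in the other 8 libraries, with a median of 0.216. All 3 libraries of set 3 were thus far above every other, in each of the 3 groups. The difference was 5.46 on the log2(count + 1) scale (SE 0.455, limma adjusted p = 8.18e-05), and 5.6 with 1 value a set (adjusted p = 0.00212). Robo2, in contrast, was called lower in set 3, at log2 values of 9.46 to 9.57 against 9.71 to 11.12 elsewhere. Robo1 stood at 11.76 to 12.60 in set 3 and 11.61 to 13.28 elsewhere, and it was not called, nor was Robo3. The ligand gene Slit3 (chromosome 11, 35121224 to 35708507) was at 13.92, 14.31 and 14.56 in set 3 and at 13.44 to 14.13 elsewhere. These ranges overlapped through normal glucose replicate 1. The Slit3 difference was 0.58 (SE 0.158, limma adjusted p = 0.0423), and it was not called with each library centred on its median. Slit3 also lost its call with a constant prior, with 1 value a file set and when any 1 of the high glucose libraries was left out. The same held without normal glucose replicate 3 and without Hsp70 replicate 1, 2 or 4. Slit2 showed no difference that passed (-0.20, SE 0.313, limma adjusted p = 0.747).

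Plexins and semaphorins held 9 of the 19 called members. Plxnb3 (chromosome X, 73757090 to 73772514), a class B plexin known from glia and nerve, was at 6.36, 7.03 and 6.73 in set 3 and at 0.44 to 4.08 elsewhere, with a median of 3.29. The difference was 4.02 (SE 0.534, limma adjusted p = 0.00111). Plxna1 was called lower, at 11.91 to 12.32 against 12.29 to 13.26. Among class 3 semaphorins, Sema3g (chromosome 14, 31217860 to 31230352), known from arterial endothelium, was at 5.09, 5.09 and 5.11 in set 3. Elsewhere it ranged from 0 in both libraries of set 2 to 2.93. Its difference was 3.96 (SE 0.449, limma adjusted p = 0.000415), but with 1 value a set it did not pass (3.58, adjusted p = 0.101).

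The other class 3 members that were called went the opposite way. Sema3a, a repellent of axons and of endothelial sprouts, was at 11.93, 12.09 and 12.14 in set 3 and at 11.99 to 13.61 elsewhere (difference -0.89, SE 0.182, limma adjusted p = 0.0111). Hsp70 replicate 3 of set 4 was the library at 11.99, inside the range of set 3. Sema3f was lower too, at 8.58 to 8.96 against 9.29 to 9.84, with no overlap. Class 4 semaphorins had 3 of 6 called, Sema4a, Sema4f and Sema4g, all higher, where 8.21% of all genes were. Sema4f passed neither of the other scalings, nor did Sema4a with quantile normalization. Sema4a lost its call in 14 of 20 alternatives and Sema4g in 6.

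Sema4a and Sema7a, which are known from leukocytes, were both higher in set 3. Sema4a stood at 3.64, 4.20 and 4.11 there and at 1.59 to 3.32 elsewhere (difference 1.52, SE 0.420, limma adjusted p = 0.0441). Sema7a, a lipid-anchored semaphorin, stood at 7.23, 6.99 and 6.56 there and at 5.18 to 6.11 elsewhere (difference 1.11, SE 0.196, limma adjusted p = 0.00526). The other leukocyte-known members, Sema4d and Plxnc1, were at differences of 1.86 and 0.41 and were not called. Of the 7 members known from endothelial cells, Robo4 and Sema3g were called higher, and Efnb2 and Unc5b lower. Ephb4, Plxnd1 and Efna1 were not called, at -0.10, -0.12 and 0.65. Members of the same list thus differed in opposite directions between the same libraries.

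Efnb2 (chromosome 8, 8617434 to 8661242), the arterial ephrin, was at 9.87, 9.80 and 9.82 in set 3 and at 9.94 to 10.72 elsewhere. The set 3 libraries lay within a narrow band just below all the others. The difference was -0.64 (SE 0.103, limma adjusted p = 0.00319), and -0.58 with 1 value a set (adjusted p = 0.476). Its receptor Ephb4 was at 10.24 to 10.40 against 10.06 to 10.69 (difference -0.10, SE 0.108, limma adjusted p = 0.646).

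Among Eph receptors, Ephb1 (chromosome 9, 101922128 to 102354693) was at 4.17, 4.8 and 3.96 in set 3, or 14.6 to 26.9 normalized counts, and at 0.08 to 2.77 elsewhere. Its difference was 2.61 (SE 0.496, limma adjusted p = 0.00756). Epha5 stood at 7.36, 7.37 and 7.79 against 5.86 to 6.79 (difference 1.09, SE 0.219, limma adjusted p = 0.0101). Neither Ephb1 nor Epha5 passed with 1 value a set (adjusted p = 0.106 and 0.105). Epha2, an Eph receptor of epithelia and vessels, was called lower, at 7.87 to 7.99 against 8.04 to 9.50. Its highest values were 9.12 and 9.50, in the 2 libraries of set 2, and without that set it was not called.

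Of the netrins, Ntn4 (chromosome 10, 93640681 to 93747207), a basement membrane netrin, was at 8.23, 8.72 and 8.25 in set 3 and at 5.93 to 7.65 elsewhere. The difference was 1.6 (SE 0.249, limma adjusted p = 0.00265) and 1.65 with 1 value a set (adjusted p = 0.0378). Ntn3 was at 6.53, 6.98 and 7.10 against 5.42 to 6.30 (difference 0.92, SE 0.191, limma adjusted p = 0.0119). Its exons overlap those of Tbc1d24 on the same strand, so its reads may be shared between the genes. Ntn1 had the opposite sign and just missed the threshold, at 11.09 to 11.53 against 11.49 to 11.82 (difference -0.43, SE 0.124, limma adjusted p = 0.0516). Among its receptors, Unc5b was called lower, at 9.37 to 9.46 against 9.48 to 10.11 (difference -0.42, SE 0.112, limma adjusted p = 0.0386). Unc5b was not called with a constant prior or with 1 value a file set. It also lost its call when any 1 of the normal or high glucose libraries, or Hsp70 replicate 2 or 4, was left out.

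The remaining called member, Sema4g, was at 6.66, 7.0 and 7.21 in set 3 and at 5.86 to 6.70 elsewhere (difference 0.91, SE 0.210, limma adjusted p = 0.0203). High glucose replicate 3, at 6.70, was the only library outside set 3 within that range. Sema4d, Unc5a and Efna5 had no overlap either, the first 2 higher and Efna5 lower in set 3, but did not pass (differences 1.86, 0.70 and -0.28). Over all leave-one-out fits, 6 of the 19 kept their call: Efnb2, Ntn4, Plxnb3, Robo2, Robo4 and Sema3g. Ephb1, Plxna1, Ntn3 and Unc5a overlap exons of an annotated gene on the other strand, which for Unc5a is Hk3. The strand setting of the counting is not given in the sources used here.

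**Figure D3:**
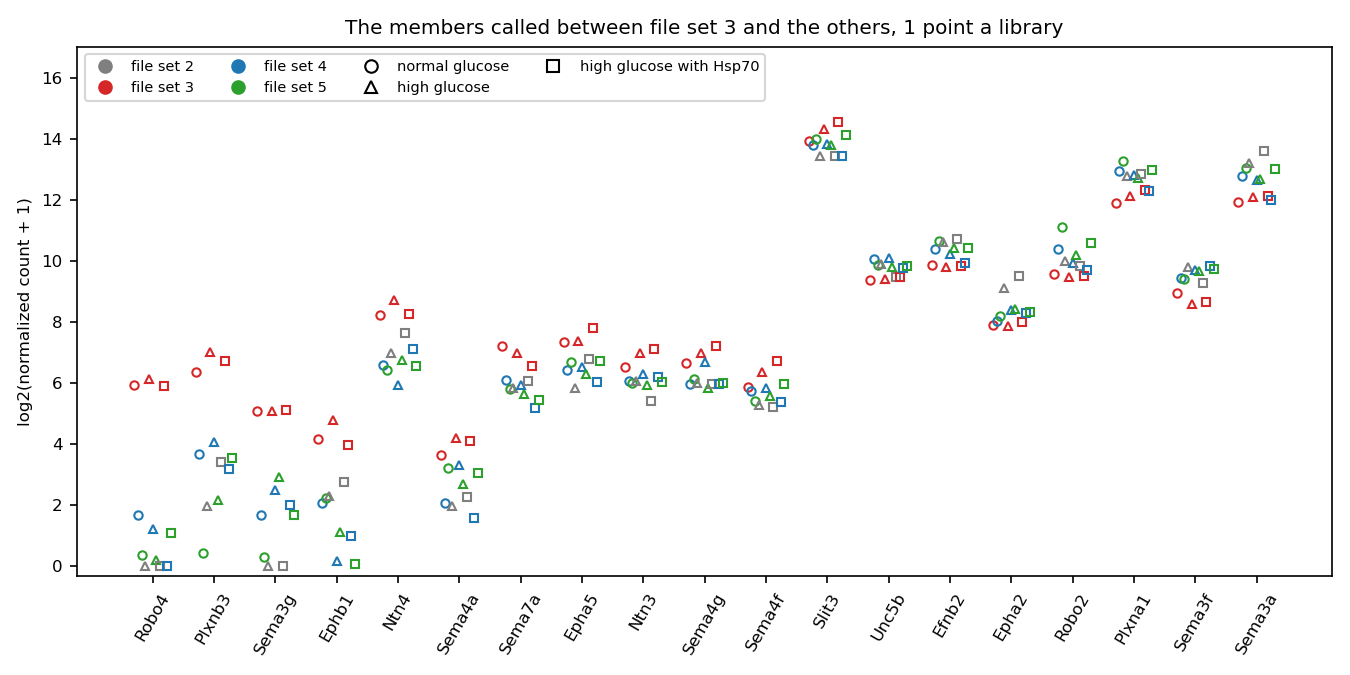
Deposited log2(normalized count + 1) (vertical axis) of the 19 members called between file set 3 and the other sets, 1 point a library, colour by file set and shape by group. The 3 red points of set 3, 1 of each group, lie above the others for Robo4 at 5.91 to 6.15 and below the others for Efnb2 at 9.80 to 9.87.

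The windows just before the RefSeq starts of 4 members that were high in set 3 are shown because these genes were high in the same 3 libraries. Each line runs 5′ to 3′ on the plus strand of GRCm38 from 250 bases before the RefSeq start and ends before that start, or before the first base of the window that is exonic in GENCODE M21. The Ntn4 window lies after the GENCODE start given above, which belongs to a shorter transcript, and outside the exons of that transcript. Capitals mark GGAAG, a 5-letter form of the core that ETS factors bind, on either strand (so also CTTCC).
Robo4, chr9:37401722-37401896: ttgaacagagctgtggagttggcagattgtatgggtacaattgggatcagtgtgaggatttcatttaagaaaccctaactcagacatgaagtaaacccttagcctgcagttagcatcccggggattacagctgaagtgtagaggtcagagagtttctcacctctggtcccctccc
Sema3g, chr14:31217623-31217859: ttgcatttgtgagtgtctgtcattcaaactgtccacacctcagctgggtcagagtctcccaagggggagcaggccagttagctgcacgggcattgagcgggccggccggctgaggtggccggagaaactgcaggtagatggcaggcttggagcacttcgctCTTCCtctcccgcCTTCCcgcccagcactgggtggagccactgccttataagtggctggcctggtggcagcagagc
Plxnb3, chrX:73756853-73757089: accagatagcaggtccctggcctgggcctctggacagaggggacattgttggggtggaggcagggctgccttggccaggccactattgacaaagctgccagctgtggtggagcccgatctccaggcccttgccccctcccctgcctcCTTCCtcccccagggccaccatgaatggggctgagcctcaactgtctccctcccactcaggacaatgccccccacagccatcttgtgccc
Ntn4, chr10:93640799-93641048: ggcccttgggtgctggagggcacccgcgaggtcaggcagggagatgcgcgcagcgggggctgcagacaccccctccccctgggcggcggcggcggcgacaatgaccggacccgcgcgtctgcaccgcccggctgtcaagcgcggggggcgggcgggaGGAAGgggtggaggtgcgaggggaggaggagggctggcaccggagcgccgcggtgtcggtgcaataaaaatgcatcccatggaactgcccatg
The whole 250-base window of Robo4 held 1 GGAAG and 1 CTTCC, both within the last 75 bases, which are exonic in GENCODE and are not printed. Over windows of that length the 5 letters or their reverse complement occurred in 67.0% of the 13448 tested genes with a RefSeq window. They occurred in 39 of 55 members (70.9%), in 10 of the 12 members called higher in set 3, in 2 of the 5 called lower that had a window, and in 27 of the 38 not called. A match describes the letters of the window only.

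Between glucose and Hsp70 groups no guidance gene was called. For high against normal glucose limma called 0 of 64 members and 0% of all genes, and at an unadjusted p under 0.05 it found 0 members and 1.01% of all genes. The median difference was 0.01 for the members and -0.01 for all genes, with 34 members above 0 and 30 below. For Hsp70 in high glucose against high glucose the counts were again 0 members and 0% of all genes called, with 0 members and 0.745% of all genes at an unadjusted p under 0.05. The medians were -0.03 and 0.00. Hsp70 in high glucose against normal glucose, which shares libraries with both, gave 0 members and 0% of all genes called, 0 members and 0.975% of all genes at an unadjusted p under 0.05, and medians of -0.04 and -0.00. The median standard error of a member was 0.347, 0.321 and 0.347 in the 3 comparisons. The 95% interval lay within 1 log2 unit of 0 on both sides for 39, 45 and 40 of the 64 members. For the rest, this fit, which had no block for the file set, did not bound a change of that size. With the file set added as a block the errors changed in both directions. For high against normal glucose the SE was 0.141 instead of 0.347 for Epha2, and 0.759 instead of 0.685 for Epha6.

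In high against normal glucose no member had groups without overlap, against 2.38% of all genes (1.06% higher and 1.32% lower). Epha1, an Eph receptor of epithelia, had the smallest p. It stood at 5.63, 5.64 and 5.38 in normal glucose and at 6.47, 6.08, 6.19 and 5.59 in high glucose. High glucose replicate 4 lay inside the normal range, and the difference was 0.53 (SE 0.333, limma adjusted p = 1.00). It was above 0 within each of sets 3, 4 and 5, at 0.45, 0.55 and 0.21. Epha1 exons overlap those of Zyx on the other strand.

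Robo2, a Slit receptor, was at 9.57, 10.39 and 11.12 in normal glucose and at 10.01, 9.46, 9.93 and 10.21 in high glucose. The single library at 11.12, normal glucose replicate 3, lay far above the rest. The difference was -0.46 (SE 0.347, limma adjusted p = 1.00), and within sets 3, 4 and 5 it was -0.11, -0.46 and -0.92. Without normal glucose replicate 3 it was -0.08. Plxnd1, the endothelial plexin, was at 10.63, 10.73 and 10.77 in normal and 10.82, 10.33, 10.54 and 10.42 in high glucose (difference -0.18, SE 0.164, limma adjusted p = 1.00). It was lower in high glucose within each set, at -0.30, -0.19 and -0.35, while high glucose replicate 1, of set 2, was the highest library of all. The other members with the smallest p, Epha2, Sema3d, Ephb2, Ephb3 and Slit1, lay at 0.41, 0.52, -0.23, -0.20 and -0.36. None of these passed, and for Ephb2 the sign rested on normal glucose replicate 1, without which the difference was 0.01. Epha2 was highest in high glucose replicate 1, at 9.12, of set 2, which had no normal glucose library. Within sets 3, 4 and 5 the Epha2 difference was -0.03, 0.37 and 0.23.

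Within sets, 7 members were above 0 in high glucose in all 3 sets (10.9%, against 11.3% of all genes): Efnb1, Epha1, Plxnb3, Sema3d, Sema3g, Sema4f and Unc5d. Another 7 were below 0 in all 3 sets (10.9%, against 14.3%): Efnb2, Plxnb2, Plxnd1, Robo2, Sema6c, Sema7a and Slit1. Both shares were close to or under those of all genes. By family, all 4 netrins and all 4 Unc5 receptors lay above 0 in high glucose, with medians of 0.02 and 0.17, and 6 of 8 ephrins lay below, with a median of -0.05. No member of these families passed the test.

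Adding Hsp70 to high glucose gave differences that changed sign from set to set. The median over the 64 members was -0.08 in set 2, 0.11 in set 3, -0.30 in set 4 and 0.12 in set 5, where those of all genes were 0.00, 0.00, -0.04 and 0.02. No member had groups without overlap, against 0.608% of all genes (0.285% higher and 0.323% lower). Sema6c, a transmembrane semaphorin, had the smallest p, at 5.43, 5.48, 6.05 and 5.08 in high glucose and 5.00, 6.40, 6.33 and 6.34 with Hsp70. Hsp70 replicate 1 was below all high glucose libraries and the other 3 above them. The Sema6c difference was 0.51 (SE 0.352, limma adjusted p = 1.00). Epha6, near the detection limit, was at 1.56, 1.32, 2.43 and 0.06 in high glucose and 2.56, 1.73, 1.00 and 3.21 with Hsp70 (difference 0.78, SE 0.634, limma adjusted p = 1.00).

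Plxna3, a class A plexin, was the one member below 0 with Hsp70 in all 4 sets (1.56%, against 4.42% of all genes), at -0.50, -0.20, -0.32 and -0.06. Its values were 7.67, 7.6, 8.02 and 8.20 in high glucose and 7.18, 7.41, 7.70 and 8.13 with Hsp70. The groups overlapped, and the difference was -0.27 (SE 0.234, limma adjusted p = 1.00). Sema3c, a secreted ligand for neuropilins and plexins, was the one member above 0 in all 4 sets (1.56%, against 3.89%), at 0.36, 0.08, 0.19 and 0.10. The other members with the smallest p were Epha1 at -0.35, Efnb3 at -0.76, Ephb2 at 0.19, Sema4c at -0.17 and Unc5b at -0.17, and none passed. By family, all 4 Unc5 receptors lay below 0 with Hsp70 (median -0.20) and all 3 Slits above (median 0.06), while ephrin-A ligands were above 0 in 5 of 5 and ephrin-B ligands in 0 of 3. These medians were of the size of the standard error of 1 member or below it.

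**Figure D4:**
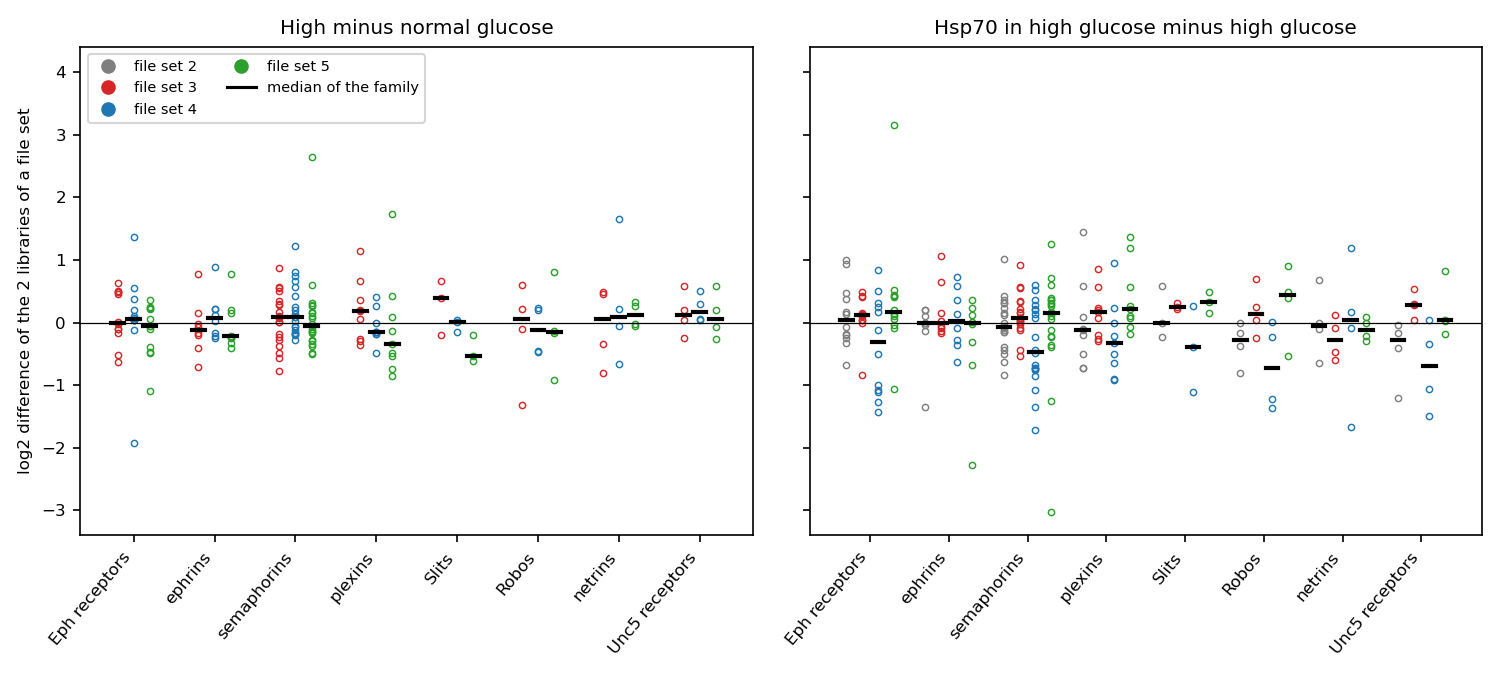
Log2 difference between the 2 libraries of a file set (vertical axis), for high minus normal glucose (left) and Hsp70 in high glucose minus high glucose (right), each point a member, by family and coloured by file set, with the family median as a bar. In the right panel most families lie below 0 in set 4 and above it in set 5, with member medians of -0.30 and 0.12.

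Against normal glucose, Hsp70 in high glucose left 1 member without overlap, Plxnd1, which was lower, against 1.72% of all genes (0.482% higher and 1.24% lower). It stood at 10.63, 10.73 and 10.77 in normal glucose and at 10.10, 10.41, 10.54 and 10.63 with Hsp70, so that the highest Hsp70 library was just under the lowest control. The difference was -0.29 (SE 0.164, limma adjusted p = 1.00), and -0.23, -0.20 and -0.14 within sets 3, 4 and 5. Epha6 had the smallest p, at 1.43, 1.06 and 0.11 in normal glucose (difference 1.26, SE 0.685, limma adjusted p = 1.00), although within sets it was 0.30, -0.06 and 3.10. Sema3c was at 13.50, 13.36 and 13.99 in normal glucose and 14.36, 13.65, 13.75 and 14.06 with Hsp70 (difference 0.34, SE 0.221, limma adjusted p = 1.00). Sema7a lay at -0.57 and Robo2 at -0.46, both below 0 in all 3 sets, and Epha2 at 0.49, above 0 in all 3. Epha2 stood at 9.50 in Hsp70 replicate 1, of set 2, which had no normal glucose library. Without that library the Epha2 difference was 0.17. Sema3e at 0.36 and Efnb3 at -0.90 had no common sign over the sets. In all, 7 members were above 0 in every set (10.9%, against 7.62% of all genes) and 6 below (9.38%, against 9.92%).

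The ligand and receptor pairs best known from vessels were also without a call between groups. Efnb2 differed by -0.04 for high glucose, -0.03 for Hsp70 in high glucose and -0.08 for Hsp70 against normal glucose, with standard errors of 0.266, 0.246 and 0.266, and Ephb4 by 0.12, 0.01 and 0.13, with standard errors of 0.162, 0.150 and 0.162. Without a block, Robo4 had wide intervals, from -4.85 to 3.31 in high glucose, since each group held 1 library of set 3. With the file set as a block the Robo4 difference in high glucose was -0.16 (SE 0.525). Slit2 and Slit3 differed by 0.01 and -0.06 for high glucose and by 0.06 and 0.04 for Hsp70 in high glucose. Sema3a, Ntn1, Ntn4 and Unc5b differed by 0.08, 0.02, 0.01 and 0.03 for high glucose and by 0.03, -0.08, 0.30 and -0.17 for Hsp70 in high glucose. All of these differences were smaller than their standard errors or close to them.

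Many guidance genes are long, and the libraries differed along gene length. The median merged exon length was 5173 bases for the members and 3065 for all genes tested, and 37 of 64 members (57.8%) had at least 4707 bases, the length above which the longest 25% of all genes lie. In Hsp70 replicate 3 the median deviation from the mean of the 11 libraries was lower for these longest genes than for the shortest 25%, a gap of -0.41 on the log2 scale. In normal glucose replicate 1 the gap was -0.34, and in Hsp70 replicate 4 and normal glucose replicate 3 it was 0.42 and 0.36. The 37 long members followed, with median deviations of -0.44, -0.24, 0.25 and 0.22 in these libraries. Hsp70 replicate 3 was the lowest of the 11 libraries for 10 of the 37 long members (27.0%, against 32.3% of all long genes) and for 3 of the other 27. Hsp70 replicate 4 was the highest for 9 of the 37, where it was for 31.7% of all long genes.

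Slit2, with 10023 bases of merged exons, is an example among the abundant members. It stood at 13.37 in Hsp70 replicate 3 and at 13.81 to 15.10 in the other 10 libraries, a deviation of -1.12 from its mean. Among the long members, lower deviations in that library were those of Robo4 (-2.05) and Ephb1 (-1.24), whose means include the high libraries of set 3. Unc5d deviated by -1.09, Sema3d by -0.98, Epha3 by -0.94, Unc5c by -0.90, Sema5a by -0.90 and Robo1 by -0.85. Long members of the same families also lay above their means there, among them Slit1 at 0.69, Robo3 at 0.58, Plxnb2 at 0.34 and Plxnb1 at 0.33. The difference of Slit2 with Hsp70 was -1.12 in set 4, which holds that library, and 0.58, 0.31 and 0.49 in sets 2, 3 and 5. The part of gene length in any difference of a member was not tested.

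**Figure D5:**
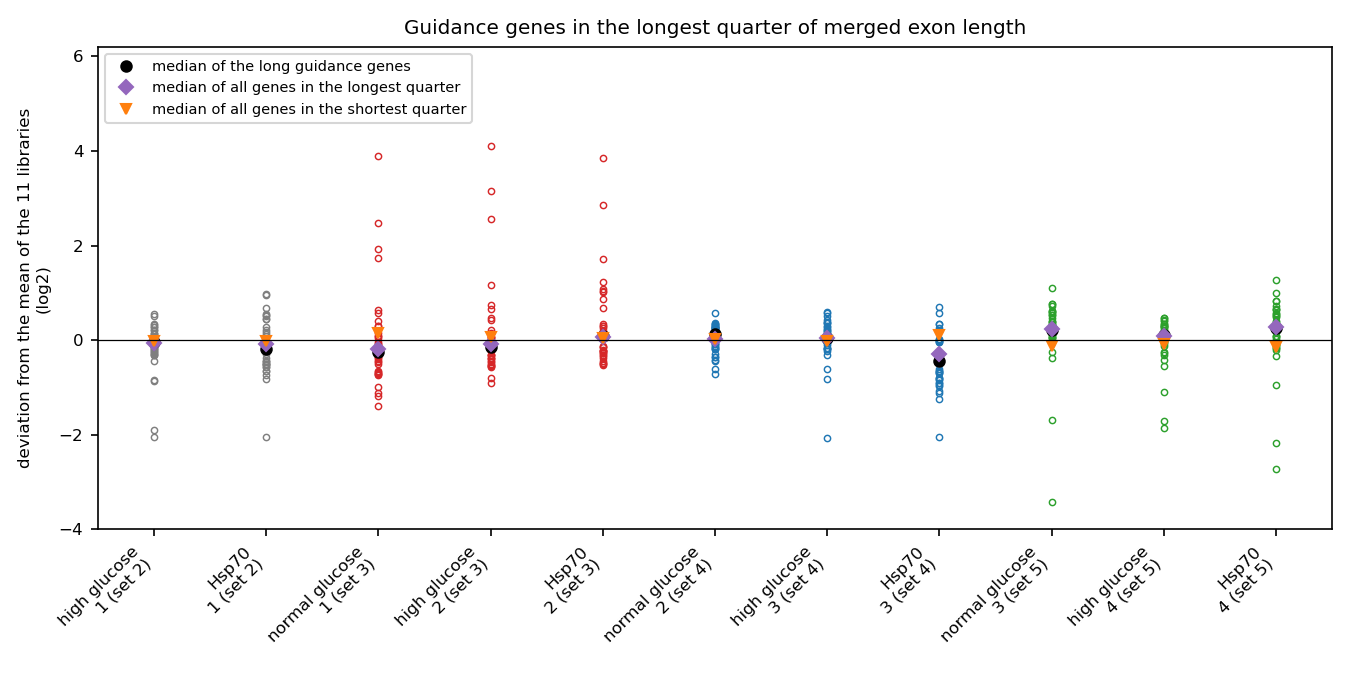
Deviation of each library from the mean of the 11 libraries (vertical axis, log2) for the 37 guidance genes among the longest 25% of genes by merged exons (open points, coloured by file set), with their median and the medians of all genes among the longest and the shortest 25%. In Hsp70 replicate 3 the long guidance genes lie at a median of -0.44 and all long genes below the short ones, and in Hsp70 replicate 4 the order is the other way round.

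Other genes of the same pathways, 52 co-receptors, further ligands and intracellular partners, were looked at in the same fits. None was called in any comparison of groups. The smallest p-values belonged to Grip1 (0.90), Dscam (-0.82) and Ngef (-0.74) for high glucose, to Ngef (1.21), Fyn (0.39) and Dscam (0.74) for Hsp70 in high glucose, and to Nck1 (0.19), Rgma (0.21) and Dpysl5 (1.07) for Hsp70 against normal glucose, as log2 differences. Ngef, an exchange factor downstream of EphA receptors, had the only unadjusted p under 0.05 among them, with a limma adjusted p of 1.00. Between set 3 and the other sets 16 of the 52 were called, 8 higher and 8 lower, against 12.7% of all genes. L1cam, a neural adhesion protein and semaphorin co-receptor partner, was higher in set 3 by 2.82 (SE 0.245, limma adjusted p = 9.76e-05), Pdzrn3 by 1.01 and the netrin relative Ntng2 by 1.23.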

How the data were processed

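RNA of 11 libraries was measured by RNA sequencing. Per the labels' protocols, a stranded SMARTer kit was used on Trizol RNA. The deposited values, 1 file a library, are on a log2 scale. From their steps and their minimum of 0 they were taken to be log2 of the normalized count plus 1. TopHat, edgeR and the build mm10 stand in the submitters' processing notes, which give no versions. For the normalization method, the annotation and the strand setting, nothing is stated (not given in the sources used here).

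Each file held 23282 rows. Repeated symbols were reduced to their most abundant copy (44 rows dropped), which left 23238 genes. The 18248 genes that reached a normalized count of 1 in 3 or more libraries were tested. Differences were fitted with limma 3.58.1 (R 4.3.3), run over all genes at once on the log2 values as deposited, with 3 group means, a trended prior and robust variances. P-values were adjusted by Benjamini-Hochberg over all 18248 genes, and a gene was called at an adjusted p under 0.05, with no fold minimum. The file set contrast was the mean of set 3 minus the average of the means of sets 2, 4 and 5, with the group as covariate. The script was tested on simulated data, with noise drawn independently for each library and so without correlation within file sets. Of genes changed by 1 log2 unit it called 31.7% to 41.2% in the group comparisons and 30.6% in the file set contrast. At 3 log2 units it called 81.3% to 89.4% and 80.9%. Fold changes on the log2(value + 1) scale understate changes of low genes.

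Gene positions and the lengths of merged exons came from GENCODE M21 on mm10, the length from its basic set. Levels were compared between genes per kilobase of that length. The windows before gene starts came from RefSeq on GRCm38.p6, the first entry listed for a gene. Python 3.11.15 with pandas 2.3.3 made the tables and matplotlib 3.10.9 the figures.

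The members, the gene lists and the contrast of file sets were chosen with earlier results of these data known. Statistics were given for the 8 members with the smallest unadjusted p in each group comparison. In the set contrast they were given for the 10 called members with the largest absolute difference and the 5 with the smallest adjusted p. Values were also given, whatever the p, for Efnb2, Ephb4, Robo4, Plxnd1, Unc5b, Sema3a, Slit2, Slit3, Ntn1 and Ntn4. Not each of these had values in every comparison. Genes of the same pathways that were no members were named where they had 1 of the 3 smallest p-values of a comparison. Alternatives were blocks by file set or title number, subsets of the file sets, other filters, 2 other scalings, a pseudocount of 5, a constant prior, 1 value a file set and leaving out each library.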

Additional observations from a re-analysis of the deposited data

Results flagged for a closer look

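In 10 of 128 groups of 4 libraries (64 members in each of the high glucose and Hsp70 groups), 1 library stood apart from the other 3: its gap to the nearest of them, divided by the range of the group, was above 0.829. Chance gives this in about 1 in 20 groups of 4 independent values from 1 normal distribution. Each group here held 1 library of set 3, which stood apart from the rest, so the count cannot be judged against that rate. Of these 10 cases, 5 were in libraries of file set 3 and 5 were not. All values are log2(normalized count + 1).

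In file set 3, Plxnb3 was at 6.73 in Hsp70 replicate 2, against 3.18 to 3.54 in the other Hsp70 libraries. In the same library the semaphorin Sema4g was at 7.21, against 5.96 to 6.0, and Ntn5 at 0.82, against 0 to 0.01. In high glucose replicate 2, also of set 3, Sema3f was low at 8.58, against 9.68 to 9.79, and Plxna1 at 12.11, against 12.73 to 12.80. Plxnb3, Sema4g, Sema3f and Plxna1 are among the members called between set 3 and the other sets.

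Outside set 3, Hsp70 replicate 1 (set 2) was the low library for the receptors Ephb2, at 8.47 against 8.93 to 8.97, and Ephb3, at 8.39 against 9.06 to 9.11. It was also low for Sema6c, at 5.00 against 6.33 to 6.40. In Hsp70 replicate 3 (set 4), Slit2 was at 13.37, against 14.78 to 15.05, and Sema4c was high at 9.51, against 8.76 to 8.88.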

How the results depend on the processing

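In the 3 comparisons of groups, limma called 0 members under each of 22 alternatives a comparison. Ephb2 in high against normal glucose was -0.23 and ranged from -0.45 to 0.015 with each library left out; it reversed without normal glucose replicate 1. The count of members called between set 3 and the other sets, 19, ranged from 6 to 30 with each library left out, and was 3 with 1 value a file set. The last alternative has 4 values instead of 11, each the mean of the high glucose and Hsp70 libraries of a set, without normal glucose. For the others the cause was not tested. File set as a block and the title number as a block both called 0 members in each comparison of groups. Deviations of libraries that share a file set correlated at 0.0219 to 0.691 (8 of 10 pairs over 0.1), and those that share a title number at -0.357 to 0.691 (4 of 10). By file set, the pairs under 0.1 were those of Hsp70 replicate 3 in set 4, with high glucose (0.0586) and normal glucose (0.0219). The labels do not say what either number marks. With the file set as a block, Robo2 (-0.47, SE 0.166) in high against normal glucose, and Robo2 and Sema7a (-0.57, SE 0.226) in Hsp70 against normal glucose, had an unadjusted p under 0.05, and limma's adjusted p was 1.00 for both genes. Without normal glucose replicate 3 and with no block, Robo2 was -0.08 in both comparisons. At the lowest levels, as for Ntn5, Robo4 outside set 3 and Epha6, the depth allows no statement on changes between groups.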
